A study of Homo sapiens with 11 samples.

Results

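MYC and 34 genes that act in the nucleolus on ribosome production were described in AsPC-1 and PANC-1, a pair of human cell lines from pancreatic cancer. The members were chosen by gene symbol: they are the 35 of the 58735 rows of each count table whose Ensembl identifier carries a member's symbol in GENCODE release 29. All 35 were found, and all 35 passed the filter on low counts in each comparison. The data were 11 poly(A) RNA-seq libraries: 2 AsPC-1 controls, 3 AsPC-1 libraries with small interfering RNA (siRNA) against MYEOV, 3 PANC-1 controls and 3 PANC-1 libraries with MYEOV siRNA. RNA of the siRNA libraries was taken 48 hours after transfection. AsPC-1 was grown in RPMI medium and PANC-1 in DMEM, so cell line and medium cannot be told apart. The labels call the controls untreated wild type, whereas the protocol lists a negative-control siRNA, so a control may or may not have been transfected. The protocol lists 2 MYEOV siRNAs, and the labels do not say whether the number of a library marks a replicate or an siRNA. Separate cultures are not stated, so each p-value rests on the spread among these libraries, and that spread may be technical.

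Ribosome production starts in the nucleolus, where RNA polymerase I copies the ribosomal DNA into a long precursor RNA. Box C/D and box H/ACA particles, which pair small nucleolar RNAs (snoRNAs) with a fixed set of proteins, methylate and pseudouridylate that precursor, and assembly factors cut and fold it into the small and the large subunit. MYC, a transcription factor that pairs with MAX and binds the E-box CACGTG, is a known activator of many of these genes, and its activity is often raised in pancreatic cancer.

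Because the E-box is the sequence that MYC binds, it was looked for in the members' promoters, taken as 250 bases before to 50 bases after the start in RefSeq (GRCh38.p14). A promoter entry was found for 28 of the 35 members. CACGTG, which reads the same on both strands, stood in 10 of the 28 (35.7%), compared with 2030 of all 27305 promoters (7.43%) and 1097 of the 11015 promoters of genes tested here (9.96%). The members with it were FBL, NOP10 with 2 copies, UTP20, WDR43, RRP9, NOP14, BYSL, PES1, NOP2 and MRTO4. The windows below show it in capitals, 5′ to 3′ on the gene's own strand. Of the members with the box, FBL, NOP10, BYSL and NOP14 are shown because their levels differ most between the lines. WDR43 is shown because it rose in AsPC-1.
FBL, chr19:39846358-39846383, minus strand: cgctcttttcCACGTGcgaaagcccc
NOP10, chr15:34343132-34343157, minus strand: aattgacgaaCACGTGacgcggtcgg
NOP10, chr15:34343291-34343316, minus strand: agggacactcCACGTGttttagcctg
BYSL, chr6:41921517-41921542, plus strand: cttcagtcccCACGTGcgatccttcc
NOP14, chr4:2963376-2963401, minus strand: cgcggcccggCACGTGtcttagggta
WDR43, chr2:28894660-28894685, plus strand: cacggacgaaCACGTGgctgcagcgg
A match of letters is a description and not a binding site. Members with the box moved in different directions: FBL, NOP10, BYSL and MRTO4 were higher in PANC-1 controls than in AsPC-1 controls, and NOP14 and WDR43 were lower. UTP20, RRP9, PES1 and NOP2 were not called in that comparison.

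A second set of sequences is shown because a word of 7 bases, CTCATGT, had been picked out earlier from genes that fell in these same libraries, so its link with falls is no independent evidence. Neither member with the word fell, and RRS1, which fell in AsPC-1, holds neither the word nor its core. In AsPC-1, 35.2% of the 1684 tested genes with CTCATGT in a GENCODE 3' untranslated region (UTR) were called lower, compared with 14.9% of the 10261 genes that have a 3' UTR without it. In PANC-1 the shares were 18.6% of 1775 and 3.31% of 10741. Called higher were 229 carriers and 2045 genes without the word in AsPC-1, and 63 and 534 in PANC-1. The word was looked for on the RNA strand only, with that pattern known. CTCATGT stood in 2 of the 35 members (5.71%), POLR1A and WDR12, compared with 14.1% of the genes tested in AsPC-1. Its core TCATGT, which every CTCATGT also holds, stood in 8 members (22.9%), compared with 41.4%: POLR1A, POLR1B, UBTF, WDR43, NOP14, WDR12, RRP1 and NIP7. POLR1A holds TCATGT at 2 places and WDR12 at 3, of which only the place within CTCATGT is shown. For members that the results turn on, 1 site each is given with the word in capitals, as DNA letters 5′ to 3′ on the strand of the mRNA (GENCODE 29, GRCh38).
NIP7, chr16:69341719-69341744, plus strand: gactccaccaTCATGTtgaattttgt
POLR1B, chr2:112575933-112575958, plus strand: ttcaaaaagtTCATGTcttctcaaaa
POLR1A, chr2:86024147-86024173, minus strand: ctgatacctcCTCATGTgtatataccg
WDR12, chr2:202878977-202879003, minus strand: ctaatctttcCTCATGTgtagattaga
WDR43, chr2:28947395-28947420, plus strand: tttgaagctaTCATGTgaagtatttt
Of these 5 genes NIP7 fell in both lines and POLR1B fell in PANC-1, whereas POLR1A and WDR43 rose in AsPC-1 and WDR12 was not called in either line. A role of the word in these changes was not tested.

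Library totals ran from 12113093 to 15066456 counts. MYEOV, the target, fell in both lines: it was at 131 and 129.7 CPM (counts relative to library size, scaled with TMM factors over all libraries) in the AsPC-1 controls and 42.9, 50.7 and 48.1 with siRNA, and at 75.1, 68.6 and 64.4 against 37.7, 35.8 and 39.8 in PANC-1. All 8 epithelial markers reached at least 1 CPM in every library, with summed levels of 18300 to 19300 CPM in AsPC-1 and 2090 to 2680 CPM in PANC-1. Acinar and islet markers summed to at most 0.167 CPM and leukocyte markers to at most 3.54 CPM. The 6 fibroblast markers summed to 1.52 to 1.77 CPM in AsPC-1 controls and 1.82 to 2.38 with siRNA, and to 33.6 to 40.7 CPM in PANC-1 controls and 47.2 to 48.7 with siRNA; DCN was at 0 in both PANC-1 groups, COL1A2 in that with siRNA, and PDGFRA in both AsPC-1 groups. The 4 mesenchymal markers summed to 853 to 885 CPM in AsPC-1 controls and 936 to 999 with siRNA, and to 2030 to 2110 and 2090 to 2160 CPM in PANC-1, with CDH2 at 0 in AsPC-1. The part of these markers in the results was not tested. PANC-1 control 2 stood farthest from its replicates. Mitochondrial transcripts took 13.16% to 13.94% of counts in AsPC-1 and 6.205% to 6.819% in PANC-1. The part of the mitochondrial share in the differences between lines was not tested.

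The first comparison asked how the members responded to MYEOV siRNA in AsPC-1. NIP7, a factor for the large subunit, fell to 48.1% of its control level, while MYC and 6 ribosome genes rose by small amounts, to between 107% and 118% of control. Of the 35 members 9 passed the edgeR test with an adjusted p below 0.05 (25.7%), with 7 rises and 2 falls, compared with 32.9% of all 14304 genes tested (16.6% higher and 16.3% lower). The members' share of calls was not above that background. Their median log2 fold change was 0.002, and that of all tested genes was -0.002. The members' summed share of all counts was 0.532% and 0.534% in the controls and 0.533%, 0.539% and 0.562% with siRNA, so the groups overlapped.

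MYC (ENSG00000136997, chr8:127735434-127741434, plus strand) was at 235 and 220.3 CPM in the AsPC-1 controls and at 256, 255 and 259 CPM with siRNA. Every siRNA library lay above both controls, and the controls were farther apart than the siRNA libraries were. The rise was 0.16 on the log2 scale (SE 0.04, 111% of control; edgeR adjusted p = 0.00193). It no longer passed without AsPC-1 control 2 (0.12; edgeR adjusted p = 0.0768).

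Among the RNA polymerase I genes, POLR1A, which encodes the largest subunit, rose in AsPC-1. Its levels were 162 and 170 CPM in the controls and 194, 195 and 192 CPM with siRNA. The groups did not overlap, and the change was 0.21 on the log2 scale (SE 0.04, adjusted p in edgeR = 0.000217). POLR1B, the second-largest subunit, POLR1C, POLR1E and the rDNA-binding factor UBTF were not called, with log2 fold changes from -0.10 to 0.03.

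Both catalytic and scaffold proteins of the box C/D particle were among the rises. FBL, fibrillarin, the methyltransferase, went from 148 and 147 CPM to 168, 166 and 183 CPM. All siRNA libraries were higher than both controls (log2 change 0.21, SE 0.04, adjusted p in edgeR = 0.000687). NOP56, a core scaffold protein, went from 216 and 227 to 233, 244 and 242 CPM, and this smaller rise (0.10, SE 0.04) was at the edge of the threshold (edgeR adjusted p = 0.0475) and was lost in 6 of 12 alternative settings. In edgeR its adjusted p was 0.469 without AsPC-1 control 1, 0.13 without siRNA library 2 and 0.0943 without siRNA library 3. NOP58, the other scaffold protein, was not called, with a log2 fold change of 0.002. None of the 4 box H/ACA proteins was called: DKC1, the pseudouridine synthase, GAR1, NHP2 and NOP10 lay between -0.01 and 0.12.

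Of the nucleolar phosphoproteins and related factors, NPM1, nucleophosmin, a histone and ribosome chaperone, rose from 1350 and 1266 CPM to 1446, 1389 and 1511 CPM. The lowest siRNA library was only slightly above the highest control, and the change was 0.13 on the log2 scale (SE 0.03, adjusted p in edgeR = 0.00391). It was lost without AsPC-1 control 2 (edgeR adjusted p = 0.138). NPM1 has 45 named pseudogenes in the annotation, so its reads may have been divided among copies. NCL, nucleolin, GNL3, nucleostemin, NOLC1 and LYAR were not called, with log2 fold changes from -0.08 to 0.08.

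Assembly factors moved in both directions. BOP1, which forms the PeBoW complex of the large subunit with PES1 and WDR12, had the largest rise of the members. It was at 119.7 and 119 CPM in the controls and at 137, 145 and 145 CPM with siRNA, without overlap (log2 change 0.24, SE 0.04, adjusted p in edgeR = 0.000117). Its partners PES1 and WDR12 had log2 fold changes of -0.11 and -0.06 and were not called, so the 3 subunits did not move together. WDR43, a small-subunit factor, rose by 0.13 on the log2 scale (SE 0.04, adjusted p in edgeR = 0.0203), a call lost in 5 of 12 settings (adjusted p in edgeR of 0.081 and 0.141 without either control, and 0.061 without siRNA library 1). The other 5 small-subunit factors were not called.

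NIP7 (ENSG00000132603, chr16:69337996-69343111, plus strand) was the member with the deepest fall. Its levels were 59.2 and 63.3 CPM in the controls and 28.1, 28.5 and 32.4 CPM with siRNA. The siRNA libraries lay far below both controls (log2 change -1.06, SE 0.07, adjusted p in edgeR = 1.08e-11). The call held in all 12 alternative settings. On the opposite strand 957 of its exon bases are shared with COG8, and whether counting used strand is not stated, but COG8 itself changed by -0.05 (edgeR adjusted p = 0.724).

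RRS1, another large-subunit factor, fell from 38.8 and 38.6 to 32.6, 34.5 and 36.1 CPM (log2 change -0.18, SE 0.07, adjusted p in edgeR = 0.0476), and the call was lost in 7 of 12 settings. In edgeR its adjusted p was 0.165 and 0.171 without control 1 or 2, and 0.153 and 0.0878 without siRNA library 1 or 2. The other 6 large-subunit factors were not called. NOP2, an RNA methyltransferase, held only 4 to 17 counts in any of the 11 libraries, and 2550 of its 4687 exon bases are shared on the same strand with another gene model, AC006064.6, that held 0 counts in each library. Its log2 change of -1.04 (SE 0.46, adjusted p in edgeR = 0.0858) rests on those few counts. PPAN, which shares 1447 of 2583 exon bases with PPAN-P2RY11 (0 counts in each library), had 24 to 52 counts.

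**Figure D1:**
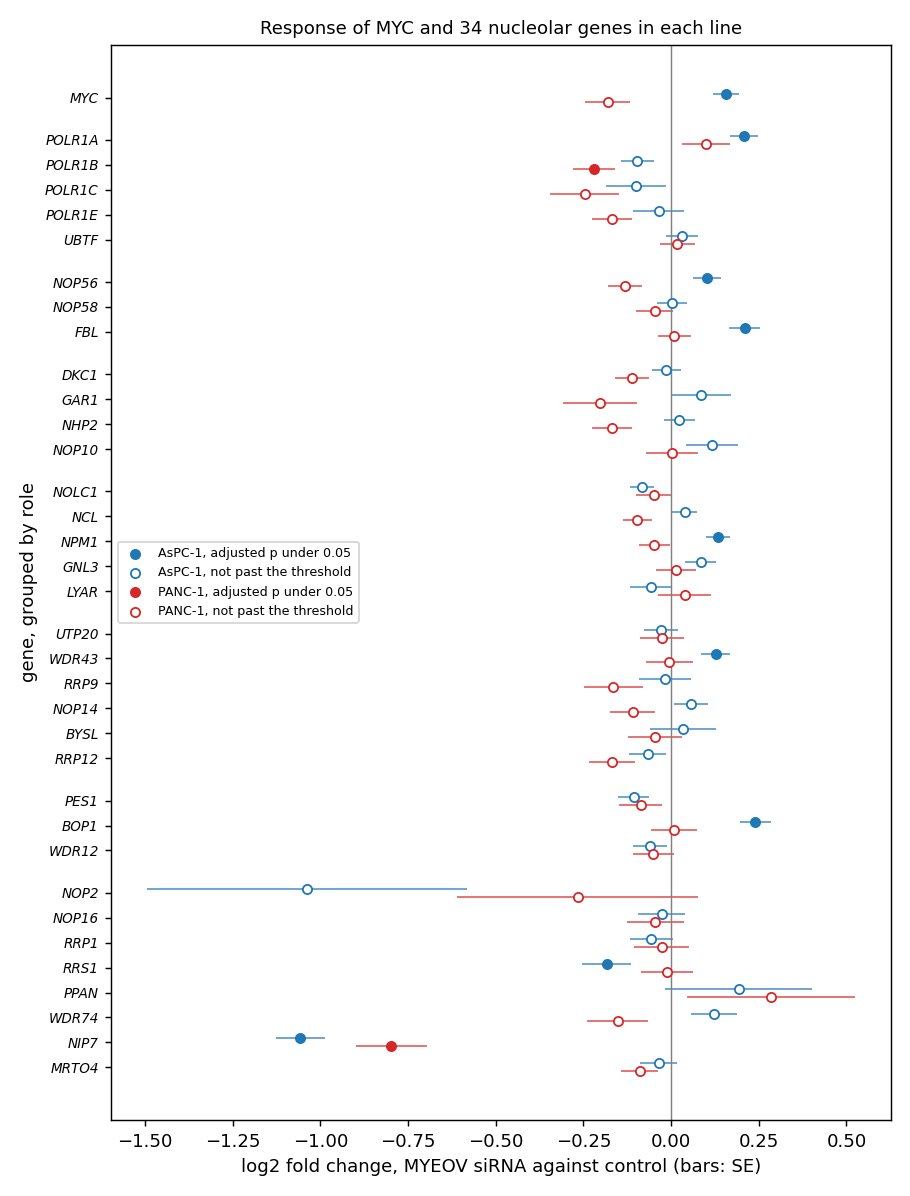
Log2 fold change of each of the 35 genes with MYEOV siRNA against control (x axis; bars are the SE) in AsPC-1 (blue) and PANC-1 (red), with genes on the y axis grouped by role. Filled points passed the edgeR test at an adjusted p under 0.05: 9 in AsPC-1 and 2 in PANC-1, with NIP7 far to the left in both lines.

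The same question was asked in PANC-1. There NIP7 and POLR1B fell and no member rose. The 2 calls were 5.71% of the members, compared with 9.08% of all 14929 genes tested (4.16% higher and 4.92% lower). The fits of PANC-1 libraries were noisier, with a biological coefficient of variation of 6.08% against 2.77% in AsPC-1. Most members had small negative values: 27 of 35 log2 fold changes were below 0 with a median of -0.05, compared with 7507 of 14929 genes and a median of -0.001. At an unadjusted p under 0.05 there were 10 members (28.6%), compared with 23.5% of all genes tested. Their summed share of all counts was 0.764%, 0.752% and 0.731% in the controls and 0.718%, 0.746% and 0.698% with siRNA, and these ranges overlapped.

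NIP7 went from 40.0, 51.0 and 38.8 CPM in the PANC-1 controls to 23.1, 25.8 and 25.8 CPM with siRNA. Control 2 was the highest, and every siRNA library lay below every control. The fall left 57.5% of the control level (log2 change -0.80, SE 0.10, adjusted p in edgeR = 0.000247) and held in all 13 alternative settings. COG8 on the other strand changed by -0.13 (edgeR adjusted p = 0.467).

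POLR1B went from 66.8, 63.7 and 62.1 CPM to 54.6, 57.2 and 53.6 CPM. The groups did not overlap, and the change was -0.22 on the log2 scale (SE 0.06, adjusted p in edgeR = 0.0365), and 8 of 13 settings ended the call, DESeq2 among them (adjusted p = 0.0568). Without PANC-1 control 1 or 3 its adjusted p in edgeR was 0.111 or 0.0656, and without each siRNA library in turn 0.158, 0.0644 and 0.131. The remaining polymerase genes ranged from -0.25 for POLR1C, a subunit that polymerases I and III share (edgeR adjusted p = 0.143), to 0.10 for POLR1A, whose groups overlapped.

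MYC in PANC-1 was at 70.7, 64.0 and 72.2 CPM in the controls and at 60.4, 62.6 and 59.6 CPM with siRNA. The siRNA libraries were all lower than the controls, with control 2 close to them. The log2 fold change of -0.18 (SE 0.06) did not pass (edgeR adjusted p = 0.096). It passed without PANC-1 control 2 (-0.23; edgeR adjusted p = 0.0165) and in 1 fit over all 4 groups (edgeR adjusted p = 0.0317).

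The member with the largest change in each remaining role group in PANC-1 was not called by the edgeR test. NOP56 had -0.13 (adjusted p = 0.112), and FBL, which had risen in AsPC-1, had 0.01. GAR1 had -0.20 (adjusted p = 0.266) with overlapping groups. NCL had -0.10 (adjusted p = 0.176), RRP12, a small-subunit export factor, -0.17 (adjusted p = 0.138), and PES1 -0.09 (adjusted p = 0.433). All 6 small-subunit factors had values below 0, from -0.17 to -0.005, and none was called; with upper-quartile scaling WDR43 was slightly above 0.

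**Figure D2:**
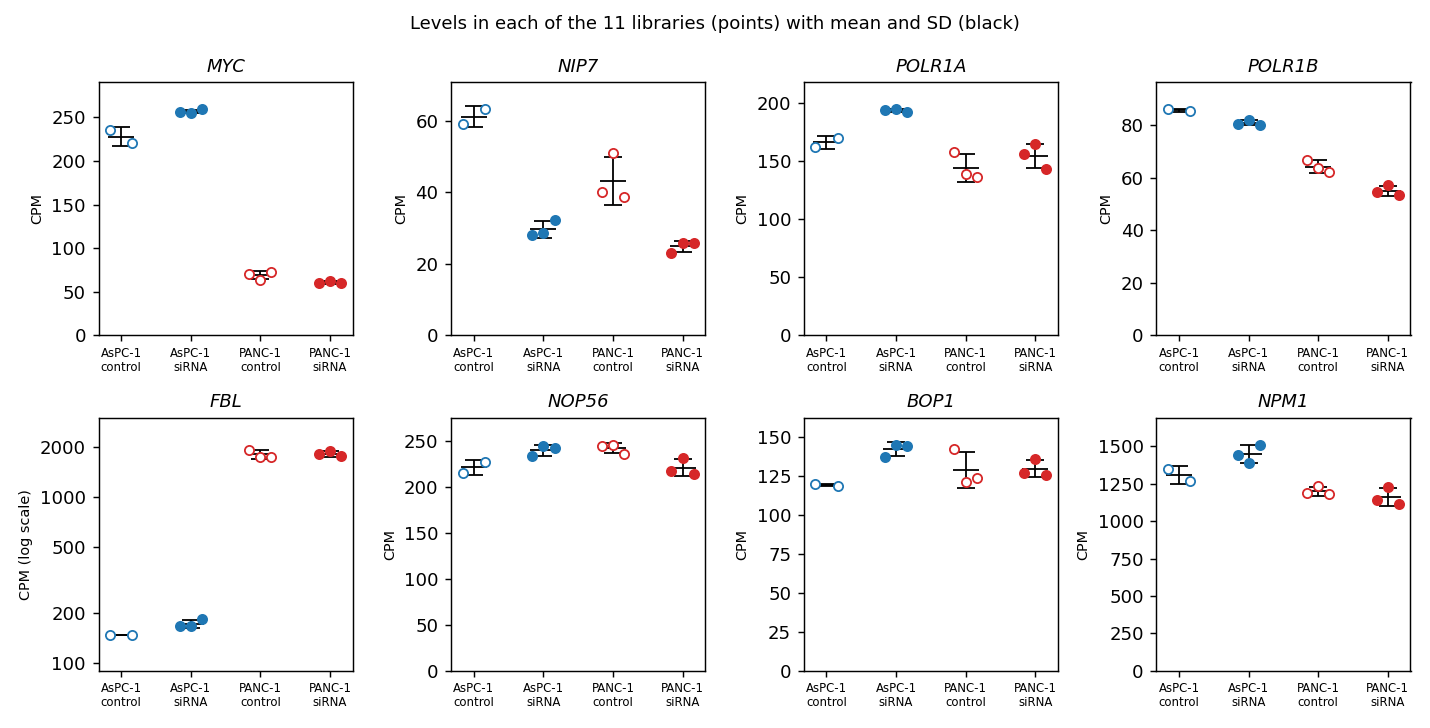
TMM-scaled CPM (y axis, from 0 except for FBL, which is on a log axis) in each of the 11 libraries for 8 genes, with open points for controls, filled points for MYEOV siRNA, and the mean and SD in black. NIP7 is lower with siRNA in both lines, MYC is higher with siRNA in AsPC-1 and lower in PANC-1, and FBL is set apart by line.

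A fit over all 4 groups then tested whether the lines responded differently, as the PANC-1 effect minus the AsPC-1 effect. MYC and NOP56 responded differently. The 2 calls, both lower in PANC-1, were 5.71% of the members, compared with 4.36% of all 16680 genes tested (2.07% higher and 2.28% lower). For MYC the difference was -0.35 on the log2 scale (SE 0.08, adjusted p in edgeR = 0.00841), the result of a rise in AsPC-1 and values below control in PANC-1. It no longer passed without AsPC-1 control 2 (-0.31; edgeR adjusted p = 0.0901). For NOP56 it was -0.25 (SE 0.07, adjusted p in edgeR = 0.0339), with levels of 245, 246 and 236 CPM in the PANC-1 controls and 218, 232 and 214 CPM with siRNA. The NOP56 call was lost in 10 of 17 settings, and its adjusted p in edgeR was 0.229 and 0.0724 without AsPC-1 control 1 or 2, 0.093 and 0.0833 without AsPC-1 siRNA library 2 or 3, 0.0516 without PANC-1 control 2, and 0.0939 and 0.0767 without PANC-1 siRNA library 1 or 3.

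Of the members 27 of 35 had a difference below 0, with a median of -0.12, compared with 8757 of 16680 genes and a median of -0.02. All 5 RNA polymerase I genes, all 3 box C/D proteins, all 4 box H/ACA proteins and all 6 small-subunit factors were among these 27, though apart from NOP56 none passed the test. With RLE or upper-quartile scaling 25 were below 0, and the small-subunit factor UTP20 was above it. The 8 large-subunit factors were divided, with 5 above 0. NIP7 did not pass the test of the difference (0.25, SE 0.14, adjusted p in edgeR = 0.391) except without PANC-1 control 2 (0.40; edgeR adjusted p = 0.0216). BOP1, FBL and NPM1 were called in AsPC-1 and not in PANC-1, yet their differences of -0.25, -0.21 and -0.19 did not pass (edgeR adjusted p = 0.124, 0.0964 and 0.0927).

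The 2 responses come from separate libraries, so their directions can be set side by side. The sign was the same in both lines for 23 of 35 members (65.7%) and for 65.6% of the 12893 genes tested in both. The Spearman correlation of the log2 fold changes was 0.436 over the 35 members and 0.428 over all of those genes. NIP7 was the 1 member called in the same direction in both lines, 8 were called in AsPC-1 only, 1 in PANC-1 only and 25 in neither. As shares of the 35 these were 2.86%, 22.9%, 2.86% and 71.4%, near those of all genes tested in both lines (6.76%, 27.1%, 2.76% and 63.1%).

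The controls of the lines were then compared without any MYEOV siRNA. FBL was 12.04-fold higher in PANC-1 and MYC was at 29.8% of its AsPC-1 level, and the other members lay between 53.9% (WDR74) and 238% (NOP10) of it. Of the 35 members 25 passed (71.4%), 8 higher in PANC-1 and 17 lower, compared with 76.4% of all 16182 genes tested (40.3% higher and 36.1% lower). The split moved to 11 higher and 12 lower with upper-quartile scaling, under which no called member changed sign. The median log2 fold change was -0.17 for the members and 0.06 for all tested genes.

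MYC was at 235 and 220.3 CPM in AsPC-1 and at 70.7, 64.0 and 72.2 CPM in PANC-1, with no overlap (log2 change -1.75, SE 0.07, adjusted p in edgeR = 2.83e-12). Ordered within a line by TPM, a level per exon length, MYC was the 4th most abundant of the 35 in AsPC-1 controls (197 ± 3.70 TPM, SD, n = 2) and the 18th in PANC-1 controls (86.1 ± 4.84 TPM, n = 3). NPM1 was the most abundant in AsPC-1 (886 TPM), followed by NCL (478 TPM) and NOLC1 (221 TPM).

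FBL (ENSG00000105202, chr19:39834458-39846414, minus strand) was at 148 and 147 CPM in AsPC-1 and at 1923, 1748 and 1742 CPM in PANC-1 controls. The lines were far apart, with no overlap (log2 change 3.59, SE 0.06, adjusted p in edgeR = 4.09e-16). Per length it was the 6th of the members in AsPC-1 (176 TPM) and the 1st in PANC-1 (3112 ± 161 TPM, n = 3). FBL alone took 26.1% ± 1.02 of the members' counts in PANC-1 controls (n = 3) and 2.55% ± 0.0283 in AsPC-1 controls (n = 2). The members together took 0.749% ± 0.017 of all counts in PANC-1 controls and 0.533% ± 0.0015 in AsPC-1 controls, and without FBL 0.553% ± 0.011 and 0.519% ± 0.0013. Of the other box C/D proteins, NOP58 was lower in PANC-1 (-0.33, SE 0.06, adjusted p in edgeR = 0.000203). NOP56 was not called (0.11; edgeR adjusted p = 0.0996), but was called higher with upper-quartile scaling (0.19; edgeR adjusted p = 0.00751).

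The genes around FBL on chromosome 19 were then described, a step chosen after its value was seen. Within 0.5 Mb of FBL, 22 of the 23 other protein-coding genes tested were higher in PANC-1 and 1, FCGBP, was lower, with a median log2 fold change of 3.92 (15.1-fold). Between 0.5 and 1 Mb, 17 of 28 were higher and 4 lower, with a median of 0.63, and the sides differed. Of all 16182 genes tested 40.3% were higher and 36.1% lower. At lower positions every gene was higher except RINL, which had -1.16. The rises there ran from 0.52 for HNRNPL to 14.87 for FBXO27, which had 0 counts in the AsPC-1 controls, with NFKBIB at 2.56, MRPS12 at 2.35 and SIRT2 at 0.99. At higher positions values ran from -1.69 for BLVRB to 1.26 for SPTBN4, with LTBP4 at 0.92 and SHKBP1 at -0.06. The transcription elongation gene PAF1 had 4.26, the ribosomal protein gene RPS16 3.62, the proteasome gene PSMC4 4.31 and the kinase gene AKT2 4.38, all near or above the value of FBL, whereas PLD3, beyond AKT2, had -0.01. Around MYC 5 genes were tested within 1 Mb: 4 were lower in PANC-1 and the long non-coding RNA gene PVT1, next to MYC, was 2.38-fold higher (log2 change 1.25, SE 0.12, adjusted p in edgeR = 1.32e-07).

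**Figure D3:**
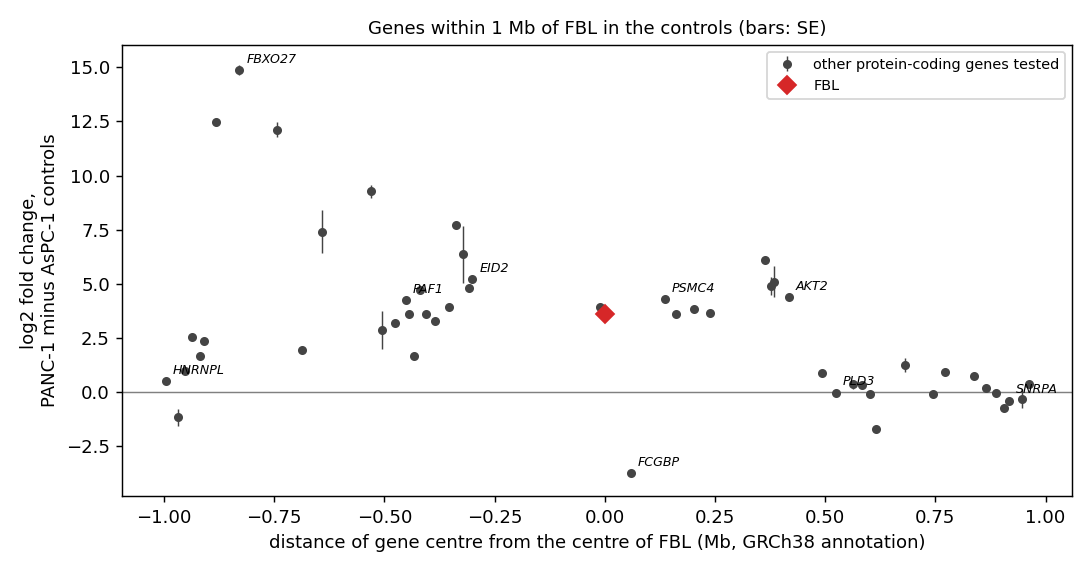
Log2 fold change of PANC-1 against AsPC-1 controls (y axis; bars are the SE) for FBL (red) and the 51 other protein-coding genes tested within 1 Mb, by distance of their centres in Mb (x axis). Most values within 0.5 Mb lie near or above the 3.59 of FBL, with FCGBP at -3.75, C19orf47 at 0.88 and ZFP36 at 1.68 as exceptions. Values to the right of AKT2 lie lower, with BLVRB at -1.69 and SPTBN4 at 1.26. In the AsPC-1 controls together 9 of the genes had at most 3 counts, and their height depends on the prior count of the fit.

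Of the RNA polymerase I genes, POLR1E, a peripheral subunit of the polymerase, was higher in PANC-1 (33.9 ± 1.38 against 82.2 ± 3.48 CPM; log2 change 1.25, SE 0.08, adjusted p in edgeR = 1.02e-09). POLR1A, POLR1B and POLR1C were lower in PANC-1, by -0.23, -0.44 and -0.29, and UBTF was not called. With upper-quartile scaling POLR1A and POLR1C no longer passed (edgeR adjusted p = 0.0888 and 0.0996). The subunits of 1 enzyme thus differed in opposite directions between the lines.

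All 4 box H/ACA proteins differed between the lines. NOP10, the smallest of them, was at 31.7 ± 1.80 CPM in AsPC-1 and 76.8 ± 7.84 CPM in PANC-1 (log2 change 1.25, SE 0.10, adjusted p in edgeR = 1.01e-08). DKC1 (0.39; edgeR adjusted p = 1.98e-05) and GAR1 (0.34; edgeR adjusted p = 0.00792) were also higher in PANC-1, and NHP2 was lower (-0.52, SE 0.06, adjusted p in edgeR = 2.93e-06).

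Of the 5 genes of nucleolar phosphoproteins and related factors 4 were lower in PANC-1, and 2 of 5 with upper-quartile scaling. NCL was at 1278 and 1273 CPM in AsPC-1 controls and 1001, 1029 and 987 CPM in PANC-1 controls (log2 change -0.37, SE 0.05, adjusted p in edgeR = 4.75e-06). NPM1, GNL3 and LYAR were lower by smaller or like amounts (-0.15, -0.21 and -0.45), and NOLC1 was not called. With upper-quartile scaling NPM1 and GNL3 no longer passed (edgeR adjusted p = 0.269 and 0.103) and NOLC1 was called higher (0.19; edgeR adjusted p = 0.00621).

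Among the assembly factors BYSL, bystin, a small-subunit factor, was higher in PANC-1 (21.5 ± 2.74 against 45.9 ± 3.84 CPM; log2 change 1.07, SE 0.11, adjusted p in edgeR = 2.26e-07), and NOP14 was lower (79.8 ± 0.80 against 55.3 ± 1.13 CPM; -0.55, SE 0.07, adjusted p in edgeR = 2.82e-06). For the large subunit, WDR74 was lower in PANC-1 (43.4 ± 1.79 against 23.7 ± 1.15 CPM; -0.89, SE 0.09, adjusted p in edgeR = 1.86e-07), as were NIP7, NOP16 and RRP1 (-0.53, -0.55 and -0.51), while RRS1 and MRTO4 were higher (0.32 and 0.30). Of the PeBoW members WDR12 passed (-0.17; edgeR adjusted p = 0.0316), but with upper-quartile scaling it did not (edgeR adjusted p = 0.251), and BOP1 was then called higher (0.18; edgeR adjusted p = 0.0478).

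**Figure D4:**
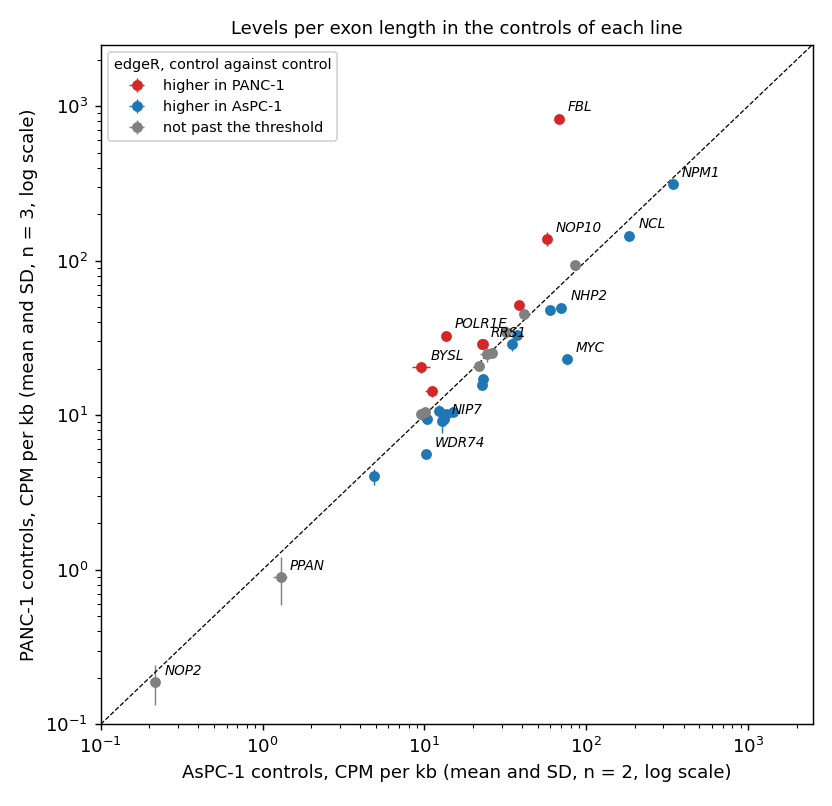
Mean TMM-scaled CPM per kilobase of exon in the AsPC-1 controls (x axis, n = 2) and the PANC-1 controls (y axis, n = 3), both on log axes with SD bars, 1 point per gene, coloured by the edgeR call. The dashed line marks equal levels: FBL lies far above it and MYC is the point farthest below it. NOP2 and PPAN have the lowest values of the 35, but both share exon bases on the same strand with another gene model. Their place among the members is therefore uncertain.

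Some members have a feature that was not used to choose them. In the annotation 8 of the 35 (22.9%) enclose at least 1 snoRNA gene, 26 snoRNA genes in all, compared with 274 of 19951 protein-coding genes (1.37%). They are POLR1C, NOP56, NOP58, DKC1, NCL, GNL3, WDR43 and PPAN. Poly(A) libraries of this kind were read for the host mRNA only, and no snoRNA level is given.

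Other ribosome biogenesis genes, a list of 115 symbols that leaves out the members, gave the wider setting. This list and the others below were chosen with earlier results of these data known. A share that differs from that of all genes is therefore no independent evidence. In AsPC-1 18 of 113 tested were higher (15.9%) and 24 lower (21.2%), with a median log2 fold change of -0.01, compared with 16.6% and 16.3% of all genes. In PANC-1 0 of 114 were higher and 13 lower (11.4%), with a median of -0.06, compared with 4.16% and 4.92% of all genes. MAK16, a large-subunit factor, went from 42.4 ± 0.86 to 27.6 ± 0.45 CPM in AsPC-1 (log2 change -0.64, SE 0.07, adjusted p in edgeR = 7.46e-08) and from 16.4 ± 0.25 to 10.0 ± 0.29 CPM in PANC-1 (-0.71; edgeR adjusted p = 0.000272). WDR36, a small-subunit factor, fell by similar amounts (-0.60 and -0.56; edgeR adjusted p = 4.66e-10 and 0.00347), as did RRP15 by less (-0.40 and -0.33; edgeR adjusted p = 3.67e-05 and 0.0298). RIOK1, a kinase of late small-subunit maturation, fell more in PANC-1 (-0.56; edgeR adjusted p = 0.000297) than in AsPC-1 (-0.29; edgeR adjusted p = 0.0128), a difference that was not called. MAK16 and WDR36 carry CTCATGT in a 3' UTR, RRP15 and RIOK1 its core TCATGT. The core is not limited to genes that fell, as genes of the other lists that rose also hold it. By adjusted p, the first 3 rises in AsPC-1 were NOP53 (0.34), the large AAA ATPase MDN1 (0.37) and the RNA helicase DDX21 (0.26), and none of them was called in PANC-1 (edgeR adjusted p = 0.175, 0.868 and 0.303). DDX21 also carries CTCATGT. Of the 1684 carriers tested in AsPC-1, 229 were called higher and 593 lower, compared with 2045 and 1528 of the 10261 genes without the word.

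Of 15 further RNA polymerase I genes tested in AsPC-1, 3 were called higher (20%) and 0 lower. Of all genes 16.6% were higher and 16.3% lower. The 3 were POLR1D (0.24), the initiation factor RRN3 (0.21) and the shared subunit POLR2L (0.17; edgeR adjusted p = 0.000853, 0.00187 and 0.018). In PANC-1 0 of the 15 were called by edgeR, compared with 9.08% of all genes. At an unadjusted p under 0.05 there was 1 of the 15, compared with 23.5% of all genes. Without AsPC-1 control 1 none of the 3 passed (adjusted p in edgeR of 0.0536, 0.0536 and 0.0649), and POLR2L also did not pass without control 2 (0.144) or siRNA library 2 (0.0532). POLR1D, which rose, carries CTCATGT in a 3' UTR. RRN3, which also rose, holds the core TCATGT.

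Of 31 other known MYC targets tested, 13 were higher (41.9%) and 5 lower (16.1%) in AsPC-1 (median 0.07), compared with 16.6% and 16.3% of all genes. This list, too, was chosen with earlier results of these data known, so its shares are a description and no independent evidence. In PANC-1 2 were higher (6.45%) and 4 lower (12.9%; median -0.03), compared with 4.16% and 4.92%. C1QBP, a mitochondrial matrix protein, HSPD1, a mitochondrial chaperonin, and POLD2, a DNA polymerase subunit, rose in AsPC-1 by 0.78, 0.36 and 0.26 on the log2 scale (edgeR adjusted p = 9.65e-08, 8.23e-10 and 6.87e-06). APEX1, a DNA repair endonuclease, fell in both lines (-0.69 and -0.65; edgeR adjusted p = 7.13e-12 and 5.05e-06), and so did PAICS, an enzyme of purine synthesis (-0.22 and -0.40; edgeR adjusted p = 9.95e-05 and 0.000342). SLC7A5, a transporter of large neutral amino acids, fell in AsPC-1 (-0.25; edgeR adjusted p = 3.98e-06) and rose in PANC-1 (0.22; edgeR adjusted p = 0.00587). LDHA, lactate dehydrogenase, fell in PANC-1 (-0.23; edgeR adjusted p = 0.0127), a call lost without PANC-1 control 3 (adjusted p in edgeR of 0.0616) and without siRNA library 1 (0.0993). The other rise in PANC-1, that of C1QBP (0.19; edgeR adjusted p = 0.0303), was lost in 6 of 13 settings, with adjusted p in edgeR of 0.0734 without control 1 and 0.193, 0.0564 and 0.0635 without each siRNA library in turn. APEX1, PAICS and SLC7A5 carry CTCATGT, whereas C1QBP, HSPD1, POLD2 and LDHA do not. LDHA holds the core TCATGT.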

How the data were processed

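The authors deposited raw whole-number counts of reads per gene, 1 table per library, with no normalization. Per the submitters' processing notes, the tools were HISAT2 and HTSeq and the build was hg19, with no versions. All 58735 identifiers of the deposited tables occur in GENCODE 29 (GRCh38), which gave symbols, exon lengths and positions. Positions are therefore those of the annotation and not of the authors' alignment. Rows without a gene name numbered 0.

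Each comparison was fitted over all genes in R 4.3.3 with edgeR 4.0.16 (low-count filter filterByExpr, TMM scaling, quasi-likelihood test, two-sided), with Benjamini-Hochberg adjustment over all genes tested and a threshold of 0.05. The fit of a line used its libraries alone, that of the difference between lines all 11, and that of the controls the 5 control libraries. The SE is the absolute log2 fold change divided by the square root of F. CPM, TPM and CPM per kilobase were computed here from the deposited counts. CPM of a line differ slightly from its own fit because their TMM factors come from all 11 libraries. No pair of replicates agreed within counting noise in a chi-square test (the statistic was 1.67 to 5.97 per degree of freedom), so none was merged.

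The members and the lists were chosen with earlier results of these data known. The genes named were MYEOV, MYC, the called members (at most 10 per comparison, by adjusted p), the member with the largest change per role and line, and up to 3 called rises and 3 called falls per line of each other list. Further members were named after their values were seen. A gene that the rule names is not reported here. For 4 list symbols (DIEXF, POLR1F, POLR1G and POLR1H) no row was matched. The alternatives tried were upper-quartile and RLE scaling, a filter of 5 CPM or none, DESeq2 1.42.0, all groups in 1 fit, a block for the replicate number and leaving out each library. The fits were tested on simulated counts. In each, 66 or 67 genes were changed per size of change (of 14047 genes run for AsPC-1), none of them at low counts. That is far fewer than were called in the data, so recovery in the data may differ. A log2 change of 0.3 was recovered for 67.2% of changed genes in AsPC-1 and 46.3% in PANC-1. For the difference between lines it was 19.4%, and between controls 37.3%. A change that was not called may thus have been missed. Figures were drawn with matplotlib 3.10.9 in Python 3.11.15.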

Additional observations from a re-analysis of the deposited data

Results flagged for a closer look

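The responses of 10 named genes differed between the lines in the edgeR test of the difference (PANC-1 effect minus AsPC-1 effect, log2 scale). Among the members these were MYC, at -0.35 (SE 0.08, adjusted p in edgeR = 0.00841), and NOP56, at -0.25 (SE 0.07, adjusted p in edgeR = 0.0339). MYEOV itself was lowered less in PANC-1, by 0.59 (SE 0.10, adjusted p in edgeR = 0.00153), and the part of this unequal knockdown in the other differences was not tested. The other MYC targets gave C1QBP at -0.60 (edgeR adjusted p = 0.00608), HSPD1 at -0.38 (edgeR adjusted p = 0.000456), POLD2 at -0.25 (edgeR adjusted p = 0.0331) and, in the opposite direction, SLC7A5 at 0.46 (edgeR adjusted p = 5.1e-05). In C1QBP the 3 AsPC-1 siRNA libraries were spread widely, at 200 ± 35.1 CPM against 116 ± 6.63 CPM in the controls. MDN1, the ribosome-assembly ATPase, differed by -0.40 (edgeR adjusted p = 0.0034) and the MYC-network factor MLXIP by 0.38 (edgeR adjusted p = 0.00384). The cyclin-dependent kinase inhibitor CDKN1A differed by 0.52 (edgeR adjusted p = 0.043). Calls of the difference were lost in 13 of 17 settings for POLD2, 10 of 17 for NOP56, 8 of 17 for CDKN1A, 2 of 17 each for MYC and C1QBP, and 1 of 17 each for MDN1 and MLXIP. Leaving out AsPC-1 control 2 ended the calls of MYC and C1QBP (edgeR adjusted p = 0.0901 and 0.0664), and leaving out AsPC-1 control 1 ended those of MDN1 and CDKN1A (edgeR adjusted p = 0.0516 and 0.413). The CDKN1A call also ended without any 1 of the AsPC-1 siRNA libraries, PANC-1 control 1, or PANC-1 siRNA libraries 1 and 3 (adjusted p in edgeR from 0.059 to 0.122), and that of POLD2 without any 1 library other than PANC-1 control 2 (adjusted p in edgeR from 0.0523 to 0.18).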

How the results depend on the processing

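No named member's fold change turned direction while called in any setting, and the 10 members with the lowest adjusted p between controls stayed called in every setting run. With upper-quartile scaling 5 other members lost the call between controls (POLR1A, POLR1C, NPM1, GNL3 and WDR12) and NOP56, NOLC1 and BOP1 gained it. In AsPC-1 9 members were called, 5 to 8 when 1 library was left out, with 5 without AsPC-1 control 2 (BOP1, FBL, NIP7, NOP56 and POLR1A), 6 with DESeq2, and 11 with a filter of 5 CPM (NOLC1 and PES1 added, so 4 falls in place of 2). In PANC-1 the 2 calls became 1 with upper-quartile scaling and 1 with DESeq2, NIP7 in both, 5 in 1 fit over all groups (MYC, NHP2 and POLR1E added), and 1 to 3 when 1 library was left out. For the difference between lines the 2 calls became 1 with RLE and 1 with upper-quartile scaling (MYC), 4 with no filter (FBL and NPM1 added), and 0 to 3 when 1 library was left out, with 0 without AsPC-1 control 2. Between controls, 25 members were called, and 20 to 27 when 1 library was left out. With the replicate number as a block, 8 members were called in AsPC-1, 1 in PANC-1, 0 for the difference and 22 between controls. Deviations of same-numbered libraries of a line correlated at -0.04, -0.02, 0.01, -0.39 and -0.10. Those of differently numbered libraries ran from -0.02 to 0.04 in AsPC-1 and from -0.37 to 0.37 in PANC-1. Deviations from means of 2 or 3 libraries depend on each other, so they cannot settle whether the numbers pair the libraries. Over all genes, the 1356 calls in PANC-1 became 628 and the 727 of the difference 241 with the block, and without 1 library they ran from 538 (PANC-1 siRNA 1) to 1712 (PANC-1 control 2) and from 305 (AsPC-1 control 1) to 1056 (PANC-1 control 2). The causes were not tested. NOP2 and PPAN had the fewest counts of the members, with at most 52 in a library. Both share exon bases on the same strand with a gene model at 0 counts. The part of this sharing in their low counts was not tested.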

Other observations

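CDKN1A, the cyclin-dependent kinase inhibitor p21, fell in AsPC-1 (22.2 ± 4.17 to 11.2 ± 0.67 CPM, n = 2 and 3; log2 change -1.01, SE 0.11, adjusted p in edgeR = 1.18e-07) and in PANC-1 (46.2 ± 3.61 to 33.5 ± 2.04 CPM, n = 3 and 3; -0.47, SE 0.08, adjusted p in edgeR = 0.00187). RPL5 and RPL11, ribosomal proteins that bind MDM2, rose in AsPC-1 (0.20 and 0.13; edgeR adjusted p = 6.06e-05 and 0.00278) and were not called in PANC-1 (0.01 and 0.03; edgeR adjusted p = 0.905 and 0.777). CDKN1A carries CTCATGT in a 3' UTR.

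Partners and antagonists of MYC, a list also chosen with earlier results known, were called about as often as all genes in AsPC-1 (16.7% higher and 16.7% lower, compared with 16.6% and 16.3%). There 2 of 12 tested were higher, MGA (0.29; edgeR adjusted p = 5.23e-05) and MXI1 (0.23; edgeR adjusted p = 0.037). Both of these risen genes hold the core TCATGT. Another 2 were lower, MLX (-0.30; edgeR adjusted p = 0.000234) and MLXIP (-0.12; edgeR adjusted p = 0.0176). In PANC-1 2 of 13 were higher (15.4%, compared with 4.16% of all genes), MLXIP (0.27; edgeR adjusted p = 0.00863) and the repressor MNT, which carries CTCATGT (0.24; edgeR adjusted p = 0.0483). Leaving out 1 library ended the call of MXI1 for 4 of 5 libraries (all but AsPC-1 siRNA 1; adjusted p in edgeR up to 0.206) and that of MNT for 5 of 6 (all but PANC-1 control 1; up to 0.161). MLXIP was not called in AsPC-1 without control 2 (0.199) or siRNA library 3 (0.0959), nor in PANC-1 without siRNA library 1 (0.0688).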
